A study of Mus musculus with 2 samples.

Results

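The cells described here are B cells among CD45-positive leukocytes sorted from mouse tumours and sequenced as single cells. They were chosen by measured values: a barcode counted as a B cell when the UMIs (unique molecular identifiers, 1 per captured transcript) of Cd79a, Cd79b and Ms4a1 summed to at least 3, with no UMI of Cd3d, Cd3e, Cd3g or Csf1r and at most 1 of Siglech. Barcodes first had to hold at least 200 genes and at most 10% mitochondrial UMIs. The rule kept 501 B cells of 22044 filtered barcodes. There was 1 library of C57BL/6 tumours labelled Ythdf2 cKO, in which the gene of an m6A reader was to be conditionally deleted, and 1 of C57BL/6 tumours labelled WT. The series' title names YTHDF2 in tumour macrophages as its subject. The sources used here do not give the Cre driver, the kind of tumour or the number of mice pooled. With 1 library per label there is no replicate and no test of the difference between them. Every interval below is at 95%, covers counting error only, and says nothing of how much 2 mice of the same genotype differ.

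B cells carry an antigen receptor made of an immunoglobulin heavy and light chain with the signalling proteins CD79A and CD79B. Naive follicular B cells bear IgM and IgD together; after activation they can switch to IgG, IgA or IgE and mature into memory cells or antibody-secreting plasma cells. In tumours, B cells also present antigen on MHC class II and respond to interferon gamma, which acts through GAS sequences in promoters and raises the transcription factor IRF1, whereas type I interferons act mainly through ISRE sequences.

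Ythdf2 did not show the loss its label names. In B cells it stood at 66.8 CPM (UMIs scaled to a fixed total per library; 48 UMIs) in the library labelled Ythdf2 cKO, hereafter the library labelled cKO, and at 53.0 CPM (50 UMIs) in the library labelled WT, a ratio of 1.26 (0.831 to 1.91). The log2 ratio, cKO over WT throughout, was 0.33 in B cells, 0.32 in T cells, 0.24 in NK cells, 0.94 in plasmacytoid cells and 2.63 in myeloid cells, each chosen by a few marker genes. Reads from the 5′ end can lie outside a deleted part, so the level does not check the deletion. Whether the labels of the libraries were exchanged was not tested; an exchange would turn every direction given here. A list of 19 gene names held genes that read, write or erase m6A and the deadenylase subunits Cnot1 and Cnot7, and 18 of the names were measured. Of these 14 had enough UMIs to be compared, and their median log2 ratio was -0.12. Among them Cbll1, a subunit of the writer complex, had 59.9 CPM in B cells labelled cKO and 37.1 CPM in B cells labelled WT.

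The 180 B cells of the library labelled cKO and the 321 of the library labelled WT carried the markers of the lineage. Ebf1, which sets up the B cell programme and played no part in the selection, was found in 176 cells labelled cKO and 300 labelled WT, and had 1731 CPM in the library labelled cKO and 1303 CPM in the library labelled WT. Pax5, which keeps B cell identity, had 455 CPM in the library labelled cKO and 482 CPM in the library labelled WT. The cells were deeper in the library labelled cKO, with a median of 3528 UMIs per cell (range 757 to 22952) against 2284 (792 to 62964) in the library labelled WT, and their UMIs summed to 718087 in the library labelled cKO and 943089 in the library labelled WT. When each cell was thinned to 1937 UMIs, the median number of genes per cell was 903 in the library labelled cKO and 928 in the library labelled WT. The libraries shared 28 filtered barcodes, and 1 of these was a B cell in both.

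A few droplets stood apart by depth and by content. Droplets with over 3 times the median UMIs of the B cells in their library, called deep below, numbered 4 in the library labelled cKO and 6 in the library labelled WT, and held 8.16% of B cell UMIs in the library labelled cKO and 16.1% in the library labelled WT. Of the droplets labelled cKO, 1 was an antibody-secreting cell, 2 held NK cell RNA (35 and 136 UMIs of 7 NK markers) and 1 held 5597 UMIs of 5 erythroid markers, mostly haemoglobin genes. Of those labelled WT, 2 held melanocytic RNA (1088 and 435 UMIs of 5 pigment-cell markers, in droplets of 62964 and 48304 UMIs), 1 was an antibody-secreting cell, 1 held 8161 UMIs of the erythroid markers, 1 held 155 UMIs of monocyte markers and 1 held 41 UMIs of NK markers. Because sums over so few cells can rest on such droplets, the gene lists and the genes that matter most are also given without the deep droplets.

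**Figure D1:**
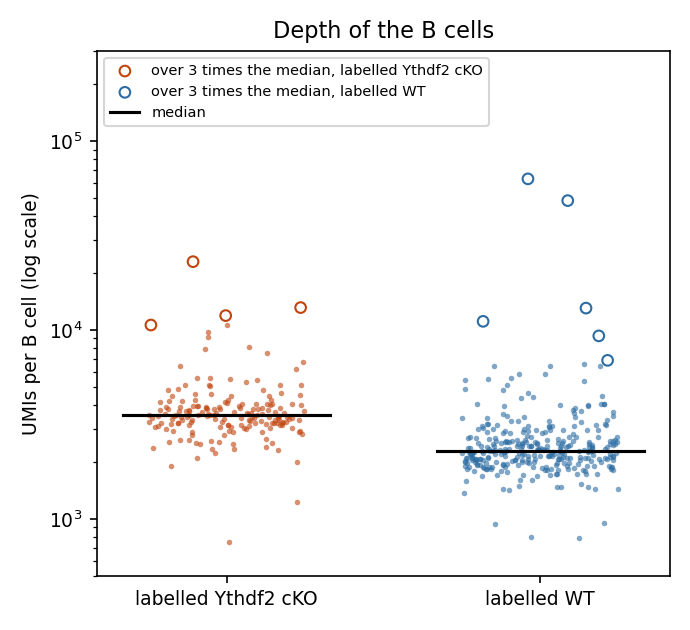
UMIs per B cell (vertical axis, log scale) in the library labelled Ythdf2 cKO (left) and the library labelled WT (right); each point is 1 cell, the line is the median and open circles are deep droplets. The medians are 3528 UMIs (cKO) and 2284 UMIs (WT), and 4 droplets (cKO) and 6 droplets (WT) lie over 3 times their median.

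RNA of other lineages was present in these cells and differed between the libraries. Summed NK markers stood at 578 CPM in the library labelled cKO and 173 CPM in the library labelled WT (without deep droplets 365 CPM in cells labelled cKO and 153 CPM in cells labelled WT). They were found in 25.6% of cells labelled cKO and 9.03% of cells labelled WT, not at matched depth. Gzma gave 244 of their 415 UMIs in the library labelled cKO and 82 of 163 in the library labelled WT. In NK cells themselves Gzma had 6066 CPM in the library labelled cKO and 3211 CPM in the library labelled WT. Neutrophil markers gave 1.39 CPM in the library labelled cKO, with 4 of 5 at 0, and 611 CPM in the library labelled WT, where none was at 0. Those of the library labelled WT lay in 18 cells, with 45.7% of the UMIs in 1 cell. Melanocytic markers gave 9.75 CPM with 1 of 5 at 0 in the library labelled cKO, and 1750 CPM in the library labelled WT, where 1 droplet held 65.9% of these UMIs and Dct was seen in 53 of the 321 cells. Without deep droplets the melanocytic sums were 10.6 CPM in the library labelled cKO and 159 CPM in the library labelled WT. Erythroid markers gave the largest of these sums, 7826 CPM in the library labelled cKO and 12952 CPM in the library labelled WT. Without deep droplets they were 34.9 CPM in the library labelled cKO and still 5119 CPM in the library labelled WT. T cell markers other than the Cd3 genes were low in both, with 66.8 CPM in the library labelled cKO and 43.5 CPM in the library labelled WT. Lyz2, the myeloid lysozyme, was at 87.7 CPM in the B cells of the library labelled cKO and 324 CPM in those of the library labelled WT, which is 2.18% (cKO) and 4.87% (WT) of its level in the myeloid cells of the same library. Apoe did not share that pattern, at 713 CPM in the B cells of the library labelled cKO, where T cells had 36.3 CPM and myeloid cells 690 CPM, and at 825 CPM in the B cells of the library labelled WT, where T cells had 323 CPM and myeloid cells 2135 CPM. The part of foreign RNA in the results below was not tested.

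B cells made up a smaller share of the library labelled cKO. They were 180 of 9865 filtered barcodes there, 1.82% (1.57% to 2.11%, exact Clopper-Pearson interval), and 321 of 12179 in the library labelled WT, 2.64% (2.36% to 2.94%). The ratio of the shares was 0.692 (0.574 to 0.833), or -0.53 on the log2 scale. Since these values come from the genes that chose the cells, and a sorted suspension fixes only shares, fewer B cells cannot be told apart from more of the other cells. The size of the ratio moved with the filters: with at most 5% mitochondrial UMIs it was -1.32 (69 cells labelled cKO and 206 labelled WT), at median mitochondrial shares of 5.38% in the library labelled cKO and 4.46% in the library labelled WT. Without cells that held any UMI of Ncr1, Nkg7, S100a8, C1qa or Pmel it was -0.25 (149 cells labelled cKO and 218 labelled WT). That is a ratio of 0.844, and its interval, 0.680 to 1.04, covers 1. With the rule applied after thinning to 1500 UMIs the ratio was 0.783 (0.642 to 0.954).

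The exclusions left out more barcodes than the marker minimum did just outside it. A marker sum of at least 3 was reached by 289 barcodes (2.93%) of the library labelled cKO and 612 (5.03%) of the library labelled WT. Of these, 109 (37.7%) labelled cKO and 291 (47.5%) labelled WT were left out because they also held UMIs of another lineage. UMIs of a Cd3 gene were found in 77 of the 289 labelled cKO and 203 of the 612 labelled WT, and UMIs of Csf1r in 71 labelled cKO and 239 labelled WT. Just inside the minimum, 2 cells of the library labelled cKO and 27 of the library labelled WT had a marker sum of 3. Just outside it, 3 barcodes labelled cKO and 28 labelled WT had a sum of 2 and met the other conditions. The median sum of the selected cells was 14 in the library labelled cKO and 8 in the library labelled WT, so the minimum cut nearer to the bulk of the shallower library. At the Siglech limit, 3 of the selected cells labelled cKO and 0 of those labelled WT held 1 UMI, and no barcode with 2 would otherwise have been selected.

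Nearly all of these B cells used IgM or IgD. Among cells with at least 2 UMIs of a leading heavy-chain constant gene, Ighm or Ighd led in 178 of 180 (98.9%) in the library labelled cKO and in 315 of 317 (99.4%) in the library labelled WT. The exceptions were 1 cell led by Ighg2c and 1 by Ighg3 in the library labelled cKO, and 1 led by Ighg1 and 1 by Ighg3 in the library labelled WT. No cell was led by Igha or Ighe. UMIs of both Ighm and Ighd, the pair of a naive mature B cell, were found in 160 cells (88.9%) of the library labelled cKO and 251 (78.2%) of the library labelled WT. At a matched depth Ighd alone was seen in 76.3% (69.3% to 82.3%) of cells labelled cKO and 72.4% (66.5% to 77.7%) of cells labelled WT, where T cells, which do not use the gene, had it in 0.549% of those labelled cKO and 0.714% of those labelled WT. The shares of Ighd at matched depth therefore differed by less than their counting error. The kappa gene Igkc led the light chains in 162 of 177 cells (91.5%) of the library labelled cKO and in 288 of 317 (90.9%) of the library labelled WT. The lambda genes Iglc1, Iglc2 and Iglc3 led in 15 cells labelled cKO and 29 labelled WT; they are near-identical copies, and their separate counts are uncertain. Variable segments, which would show clones, had 269 UMIs in the library labelled cKO and 101 in the library labelled WT, with 2 or more in only 10 cells labelled cKO and 7 labelled WT, too few to describe.

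Among the selected B cells, 1 in each library was an antibody-secreting cell. Neither held a UMI of Ms4a1, 1 of the 3 genes that chose the cells. Secreting cells that did not meet the selection rule were not looked for, so the number of such cells in each library is not known. The secreting cell of the library labelled cKO held 2996 UMIs of Ighg2c, 8394 of Igkc and 708 of Jchain, which links IgM and IgA polymers and marks secreting cells. That of the library labelled WT held 930 UMIs of Ighg1, 2757 of Igkc, 180 of Jchain and 853 of Slpi, a secreted protease inhibitor. They expressed different IgG subclasses, and with 1 cell each no preference can be read from that. These droplets supplied 62.4% of all Igkc UMIs among the B cells of the library labelled cKO and 32.9% in the library labelled WT. Igkc stood at 18737 CPM in the library labelled cKO and 8880 CPM in the library labelled WT with them, and, without the deep droplets, at 7515 CPM in the library labelled cKO and 7001 CPM in the library labelled WT. Plasma cell genes were otherwise low: with the secreting cells counted, Jchain was seen in 1 cell of the library labelled cKO and 2 of the library labelled WT, Prdm1, the master regulator of plasma cells, had 5 UMIs in cells labelled cKO and 18 labelled WT, and Tnfrsf17, the receptor BCMA, had none in either, which at a floor of 3 UMIs allows up to 4.18 CPM in the library labelled cKO and 3.18 CPM in the library labelled WT. Outside the B cells, Igkc was found in 5.93% of T cells and 53.3% of plasmacytoid cells of the library labelled cKO, and in 4.34% of T cells and 62.6% of plasmacytoid cells of the library labelled WT.

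The genes of the naive and follicular state were at similar levels in both libraries. All 12 genes of that list were compared and none differed by 1.5-fold, with a median log2 ratio of 0.19, and of 0.033 without deep droplets. Among them Ighm had 3683 CPM in the library labelled cKO and 3570 CPM in the library labelled WT, Ccr7, the receptor that guides cells to lymphoid tissue, had 469 CPM in the library labelled cKO and 479 CPM in the library labelled WT, and Bach2, which holds back plasma cell fate, had 308 CPM in each. Germinal centre genes had few UMIs: Rgs13 had 0 labelled cKO and 2 labelled WT, S1pr2 had 1 labelled cKO and 3 labelled WT, Gcsam had none, and Bcl6, the master regulator of that state, had 14 labelled cKO and 27 labelled WT. Only Basp1 of the 10 germinal centre genes reached the minimum for comparison.

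Across all genes, 4298 had at least 50 UMIs over the B cells of both libraries and entered the comparison, as log2 ratios after adding 1 CPM. A gene counts as higher or lower at 1.5-fold, which is a size and not a test. By that measure 191 genes (4.44%) were higher and 536 (12.5%) lower in the library labelled cKO, with a median log2 ratio of -0.047. Without the deep droplets 3843 genes were compared, 140 (3.64%) were higher and 216 (5.62%) lower, with a median of -0.027. The count of lower genes thus depended more on these few droplets than the count of higher genes.

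Most listed genes that respond to interferon gamma stood higher in the B cells of the library labelled cKO. The member with most UMIs over all B cells, Ly6a (123 in cells labelled cKO and 217 labelled WT), was lower, and Irf1 came next to it in UMIs. Of all 20 listed genes, 17 had a higher and 2 a lower CPM in the library labelled cKO than in the library labelled WT, and 1 had no UMI. Of the 17, 7 had under 50 UMIs, such as Gbp8 with 3 in cells labelled cKO and 0 labelled WT. The same share over all genes was not counted, and the list was chosen with earlier results of these data known. The 11 that reached 50 UMIs had a median log2 ratio of 1.03, and 8 of them were at least 1.5-fold higher and 0 lower, beside 4.44% of all genes higher. That count and median lend no support, since 7 of the 8, all but Irf1, would have stayed under 50 UMIs at their lower CPM and so passed only through the library where they were high. Without deep droplets 7 of 9 were higher and 1, Ly6a, was lower, beside 3.64% and 5.62% of all genes, with a median of 1.04. The same minimum of 50 UMIs chose these 9 genes, so that count and median lend no support either. The median was smaller under other settings, at 0.37 with at most 5% mitochondrial UMIs, 0.53 in thinned cells, 0.51 among genes with at least 100 UMIs, and 0.70 without deep droplets or those holding RNA of 5 other lineage genes, where only 4 genes could be compared. Irf1, the transcription factor that carries much of this response, had 210 UMIs and 292 CPM in the library labelled cKO and 111 UMIs and 118 CPM in the library labelled WT, a ratio of 2.48 (1.96 to 3.16). Its UMIs were spread over 101 of 180 cells in the library labelled cKO and 78 of 321 in the library labelled WT, with at most 8 in 1 cell labelled cKO and 5 in 1 cell labelled WT, so no single droplet supplied the difference. At a matched depth 39.5% (32.3% to 47.2%) of the B cells of the library labelled cKO and 19.5% (14.8% to 24.8%) of those of the library labelled WT held an Irf1 UMI, and before thinning 56.1% of cells labelled cKO and 24.3% of cells labelled WT. Without deep droplets the log2 ratio of Irf1 was 1.16, and without droplets holding any of the 5 other-lineage genes as well it was 1.11.

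Other members were higher too, at lower counts. Socs1, a feedback inhibitor of JAK kinases, had 55.7 CPM in the library labelled cKO and 14.8 CPM in the library labelled WT, from 40 UMIs in cells labelled cKO and 14 labelled WT, a ratio of 3.75 (1.999 to 7.47), and without deep droplets 59.1 CPM in cells labelled cKO and 16.4 CPM in cells labelled WT. Irgm1, an immunity-related GTPase, had 79.4 CPM in the library labelled cKO and 27.6 CPM in the library labelled WT, a ratio of 2.88 (1.78 to 4.77), and its UMIs lay in 37 cells labelled cKO and 24 labelled WT. Without deep droplets Irgm1 had 84.9 CPM in the library labelled cKO and 27.8 CPM in the library labelled WT. The GTPases Gbp4 and Ifi47 had 48.7 CPM each in the library labelled cKO, against 22.3 and 23.3 CPM in the library labelled WT. Intervals of the ratio stayed above 1 for each of these genes, with 1.24 and 1.19 as the lower bounds of Gbp4 and Ifi47, and with 1.18 and 1.11 without deep droplets. Ly6a, the surface protein Sca-1, had 171 CPM in the library labelled cKO and 230 CPM in the library labelled WT, a ratio of 0.744 (0.592 to 0.933) that lay within 1.5-fold; without deep droplets it was lower past that fold, at a log2 ratio of -0.64. Cxcl10, a chemokine for T cells, had 57.1 CPM in the library labelled cKO and 20.1 CPM in the library labelled WT; these are 3.26% of its level in myeloid cells in the library labelled cKO and 2.97% in the library labelled WT. Irf1 in B cells was at 81.3% of its myeloid level in the library labelled cKO and 82.7% in the library labelled WT. Socs1 was at 106% of it in the library labelled cKO and 79.0% in the library labelled WT. The same shares for Lyz2 are given above, and the part of foreign RNA in these genes was not tested. Near-identical copies within the Gbp and immunity-related GTPase families make the split of reads between their members uncertain.

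**Figure D2:**
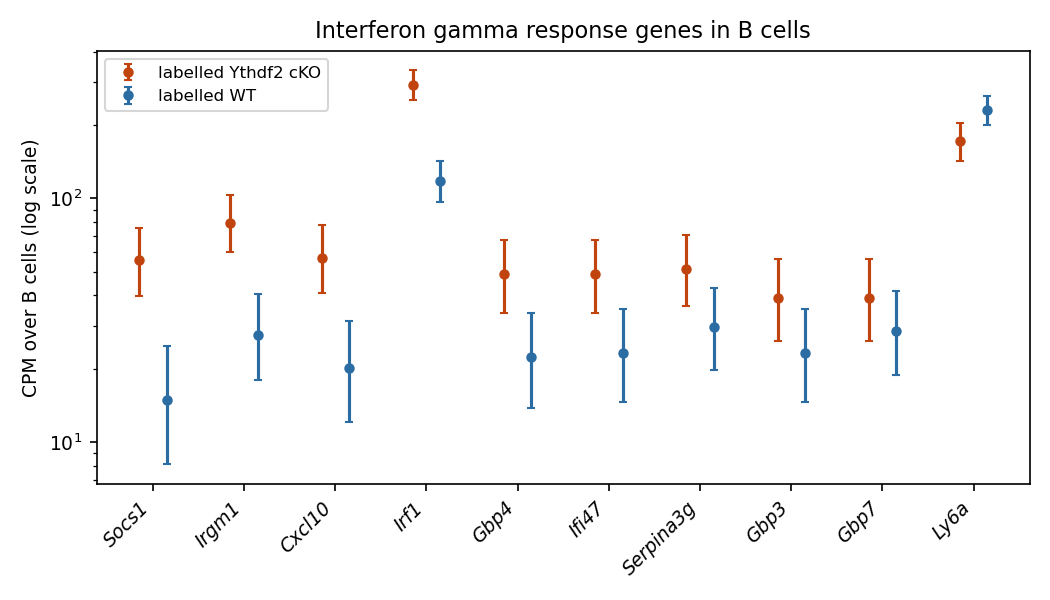
CPM over all B cells (vertical axis, log scale) of 10 of the 11 interferon gamma response genes that were compared, ordered by ratio, with exact Poisson intervals; orange is the library labelled Ythdf2 cKO and blue the library labelled WT. Irf1 stands at 292 CPM (cKO) and 118 CPM (WT) without overlap of the intervals, and Ly6a, at the right, has a ratio of 0.744.

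The promoters of Irf1, Irgm1 and Socs1 are printed because between them they show both kinds of interferon element. They were picked among members whose ratio interval lay above 1, after their values were seen. Of the other such members, Gbp5 held matches of both kinds in its window and Ifi47 held neither. The sequences are the 250 bases before a RefSeq start in GRCm38.p6, read along the gene 5′ to 3′, with matches in capitals.
Irf1, chr11:53769764-53770013, plus strand: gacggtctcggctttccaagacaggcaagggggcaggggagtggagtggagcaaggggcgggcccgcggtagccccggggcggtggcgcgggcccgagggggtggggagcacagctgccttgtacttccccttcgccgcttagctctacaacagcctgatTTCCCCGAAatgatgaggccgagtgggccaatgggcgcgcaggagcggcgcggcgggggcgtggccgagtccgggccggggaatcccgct
Irgm1, chr11:48871421-48871670, minus strand: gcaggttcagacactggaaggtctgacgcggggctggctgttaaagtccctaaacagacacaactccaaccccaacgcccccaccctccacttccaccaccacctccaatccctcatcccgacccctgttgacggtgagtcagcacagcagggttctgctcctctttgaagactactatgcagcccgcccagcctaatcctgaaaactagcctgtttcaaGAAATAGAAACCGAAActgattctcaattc
Socs1, chr16:10785537-10785786, minus strand: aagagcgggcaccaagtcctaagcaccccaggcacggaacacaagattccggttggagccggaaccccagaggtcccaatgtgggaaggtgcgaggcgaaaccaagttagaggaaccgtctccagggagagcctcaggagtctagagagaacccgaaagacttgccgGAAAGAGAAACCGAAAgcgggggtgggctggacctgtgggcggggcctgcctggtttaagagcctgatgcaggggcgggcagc
The capitals in Irf1 mark a match to the GAS letters TTCNNNGAA, which ends 81 bases before the start. In Irgm1 and Socs1 they mark 2 overlapping matches each to the ISRE core GAAANNGAAA, the nearer of which ends 14 and 67 bases before the start. Searched on both strands of 32851 promoter windows of this length, the GAS letters were found in 7.02% and the ISRE letters in 2.98%. RefSeq promoters were found for 15 of the 20 listed genes, with 17 windows, of which 8 held the GAS letters and 11 the ISRE letters. A second RefSeq start of Irf1 held neither, and a match of letters does not show that a factor binds there.

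Type I interferon genes were not higher as a list, although few of them could be compared. Of 20 listed genes only 6 reached 50 UMIs; 1 of them, Rtp4, was higher and 1, Rsad2, lower at 1.5-fold, beside 4.44% and 12.5% of all genes, with a median log2 ratio of -0.14, and of 0.20 over genes with at least 10 UMIs. The intervals of both ratios cover 1, from 0.856 to 2.76 for Rtp4 and from 0.349 to 1.13 for Rsad2. Of all 20 genes, 12 had a higher and 8 a lower CPM in the library labelled cKO, and the same share over all genes was not counted. Isg15, a ubiquitin-like antiviral protein, had 8 UMIs in each library. Ifi27l2a, the member with most UMIs, had 726 CPM in the library labelled cKO and 912 CPM in the library labelled WT, and was seen at matched depth in 56.5% (48.9% to 63.9%) of cells labelled cKO and 67.7% (61.6% to 73.4%) of cells labelled WT. The other 19 genes together had 448 CPM in the library labelled cKO and 440 CPM in the library labelled WT, a ratio of 1.02 (0.878 to 1.18). The whole interferon gamma list summed to 1159 CPM in the library labelled cKO and 724 CPM in the library labelled WT, a ratio of 1.60 (1.44 to 1.77), and of 1.54 (1.38 to 1.71) without deep droplets. Leaving out its member with most UMIs gave 1.998 (1.78 to 2.25) in all B cells, where that member was Ly6a, and 1.38 (1.23 to 1.56) without deep droplets, where it was Irf1. At a matched depth, 3 or more interferon gamma genes were seen in 19.2% (13.7% to 25.8%) of the B cells of the library labelled cKO and 8.17% (5.13% to 12.2%) of those of the library labelled WT, whereas 3 or more type I genes were seen in 16.4% (11.3% to 22.7%) of cells labelled cKO and 13.6% (9.67% to 18.4%) of cells labelled WT.

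Other cells from the same 2 libraries are set beside the B cells to show the range of both lists. The interferon gamma list had a median log2 ratio of 1.03 in B cells, 0.54 in T cells, 0.73 in NK cells, 1.37 in myeloid cells and 0.82 in plasmacytoid cells. In B cells it rests on 11 genes, 8 of which were compared only through the library where they were higher. In the other cells 17 to 20 genes were compared, so the B cell median cannot be ranked among theirs. The type I list had medians of -0.14 in B cells, 0.57 in T cells, 0.89 in NK cells, 1.22 in myeloid cells and 0.55 in plasmacytoid cells. The low B cell median for type I genes rests on 6 compared genes, whereas 19 or 20 were compared in the other cells, and whether the cell types differ was not tested, since all come from the same pair of libraries. Without the member with most UMIs, summed type I genes had ratios of 1.61 (1.58 to 1.64) in T cells, 1.89 (1.81 to 1.97) in NK cells, 2.41 (2.38 to 2.43) in myeloid cells and 1.31 (1.25 to 1.37) in plasmacytoid cells, beside 1.02 in B cells.

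**Figure D3:**
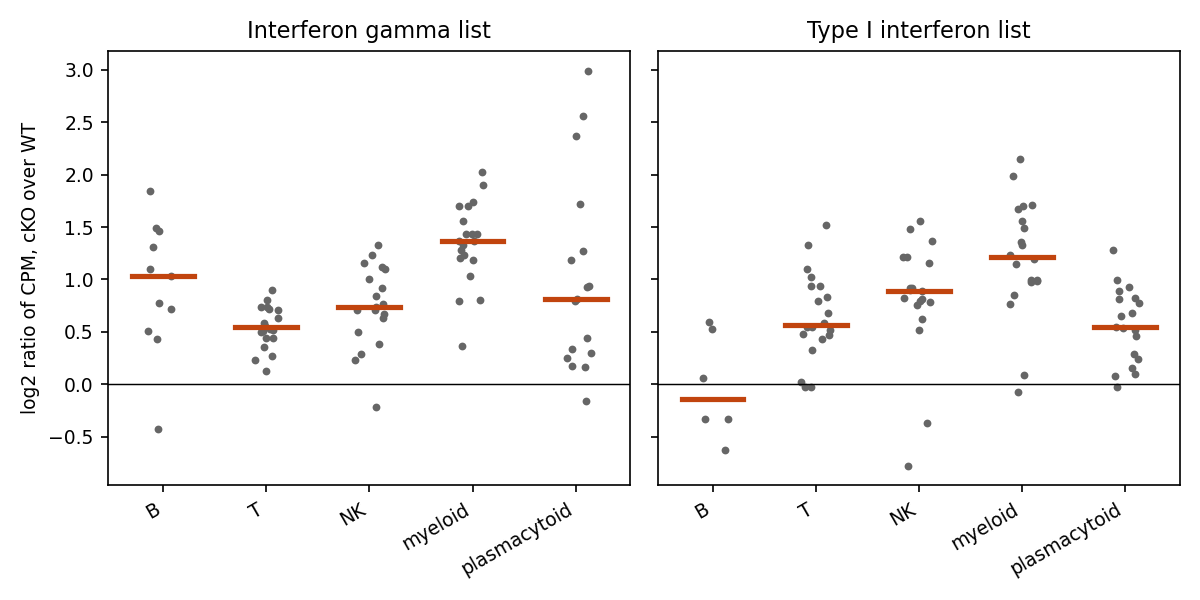
Log2 ratio of CPM, cKO over WT (vertical axis), of each compared gene (points) of the interferon gamma list (left) and the type I interferon list (right) in 5 kinds of cells; bars are medians. B cells have a median of 1.03 for the first list and -0.14 for the second. The first rests on 11 genes, 8 of which were compared only through the library where they were higher, and the second on 6 genes.

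No antigen presentation gene reached 1.5-fold. The 11 MHC class II genes had a median log2 ratio of 0.34 and the 14 compared MHC class I genes one of 0.27, and without deep droplets 0.21 for class II and 0.11 for class I. The class II chains H2-Aa and H2-Eb1 had 3402 and 2828 CPM in the library labelled cKO, against 2424 and 2011 CPM in the library labelled WT. Cd74, the invariant chain, had 10539 CPM in the library labelled cKO and 8100 CPM in the library labelled WT, and, without deep droplets, 11163 CPM in the library labelled cKO and 9419 CPM in the library labelled WT. Ciita, which switches class II transcription on, was at 191 CPM in the library labelled cKO and 175 CPM in the library labelled WT, a ratio of 1.09 (0.863 to 1.38). The non-classical class I gene H2-T23 had the highest ratio of its list, 1.49 (1.24 to 1.78), and was seen at matched depth in 49.2% (41.6% to 56.8%) of cells labelled cKO and 38.9% (32.9% to 45.2%) of cells labelled WT. Class I genes are near-identical in stretches, so reads may be split between them.

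Genes of receptor signalling and B cell identity differed little. Of 19 signalling genes 1 was higher and 1 lower at 1.5-fold, beside 4.44% of all genes higher and 12.5% lower. The higher was Lat2, an adaptor of receptor signalling, with 120 CPM in the library labelled cKO and 71.0 CPM in the library labelled WT. The lower was Cd81, a tetraspanin of the B cell surface, with 111 CPM in the library labelled cKO and 173 CPM in the library labelled WT. Cd81 was under 1.5-fold without deep droplets, with a log2 ratio of -0.33. None of 13 transcription factors reached 1.5-fold, with a median of 0.17, and of 0.038 without deep droplets. Vpreb3, a chaperone of immunoglobulin light chains that is high in immature B cells, was higher, at 345 CPM in the library labelled cKO and 200 CPM in the library labelled WT, a ratio of 1.72 (1.42 to 2.09). At a matched depth 44.1% (36.6% to 51.7%) of cells labelled cKO and 30.0% (24.4% to 36.0%) of cells labelled WT held it, and the T, NK and myeloid cells, which lack it, held it in under 0.05%. With at most 5% mitochondrial UMIs, however, its log2 ratio was -0.048. Cd93, another gene of immature B cells, had 44.6 CPM in the library labelled cKO and 37.1 CPM in the library labelled WT, a ratio of 1.20 (0.720 to 1.997).

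Few genes of homing, survival, costimulation and Toll-like receptors passed 1.5-fold. The 12 compared homing genes had a median log2 ratio of 0.27, and of 0.13 without deep droplets. Of these Cxcr4, the receptor for CXCL12, and Itgal, a chain of LFA-1, had 482 and 73.8 CPM in the library labelled cKO, against 317 and 48.8 CPM in the library labelled WT. Both lay just past 1.5-fold, beside 4.44% of all genes higher. Without deep droplets both lay just under it, at log2 ratios of 0.48 and 0.39. The BAFF receptor Tnfrsf13c had 143 CPM in the library labelled cKO and 110 CPM in the library labelled WT, and TACI (Tnfrsf13b) had 136 CPM in cells labelled cKO and 96.5 CPM in cells labelled WT. Of the 8 survival genes compared 1 was lower, beside 12.5% of all genes. It was Bcl2a1b, an anti-apoptotic BCL2 relative induced by receptor signals, with 52.9 CPM in the library labelled cKO and 106 CPM in the library labelled WT, a ratio of 0.499 (0.334 to 0.732). Its paralogue Bcl2a1d had 9 UMIs in cells labelled cKO and 18 labelled WT, and reads may be split between the copies. Cd40, through which helper T cells act on B cells, had 55.7 CPM in the library labelled cKO and 32.9 CPM in the library labelled WT, and the checkpoint ligand Cd274 had 89.1 CPM in cells labelled cKO and 115 CPM in cells labelled WT. Il10, the cytokine of regulatory B cells, had 1 UMI in cells labelled cKO and 3 labelled WT, under what this depth can compare. Of 5 compared genes of Toll-like receptor signalling none reached 1.5-fold, with a median of 0.31, and of 0.23 without deep droplets, and Tlr9 had no UMI in either library.

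Part of the early activation genes were lower in the library labelled cKO. Of 17 compared, 5 were lower (Egr1, Nr4a1, Myc, Ccl3 and Ccl4) and 1 was higher (Tnfaip3), both in all B cells, beside 12.5% of all genes lower and 4.44% higher, and without deep droplets, beside 5.62% lower and 3.64% higher. Nr4a1, which reports antigen receptor signals, had 263 CPM in the library labelled cKO and 400 CPM in the library labelled WT, a ratio of 0.658 (0.550 to 0.786), and of 0.610 (0.508 to 0.730) without deep droplets. It was seen in 29.4% (22.8% to 36.7%) of B cells of the library labelled cKO and 45.1% (38.9% to 51.4%) of those of the library labelled WT at matched depth. Egr1, an immediate early transcription factor, had 103 CPM in the library labelled cKO and 391 CPM in the library labelled WT, but 5 of the 321 cells of the library labelled WT held 46.3% of its UMIs, and the shares of cells at matched depth were 12.99% (8.42% to 18.9%) of cells labelled cKO and 19.8% (15.1% to 25.3%) of cells labelled WT. Myc, which drives growth after activation, had 72.4 CPM in the library labelled cKO and 121 CPM in the library labelled WT, and was seen in 10.7% (6.59% to 16.3%) of cells labelled cKO and 17.9% (13.4% to 23.1%) of cells labelled WT. Other genes of the list did not follow: Cd69 had 514 CPM in the library labelled cKO and 394 CPM in the library labelled WT, Cd83 had 265 CPM in cells labelled cKO and 188 CPM in cells labelled WT, and Junb had 1746 CPM in cells labelled cKO and 1754 CPM in cells labelled WT. Tnfaip3, the NF-kB inhibitor A20, had 272 CPM in the library labelled cKO and 154 CPM in the library labelled WT. Ccl3 and Ccl4, chemokines that myeloid cells also make, had 48.7 and 149 CPM in the library labelled cKO, against 298 and 284 CPM in the library labelled WT. A single WT-labelled cell held 134 of the 281 Ccl3 UMIs, and Ccl3 was seen in 13.3% of cells labelled cKO and 8.72% of cells labelled WT. The part of foreign RNA in these chemokines was not tested.

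Stress genes, which tissue digestion can induce, were lower as well. Of 15 compared, 6 were lower at 1.5-fold and 0 higher, beside 12.5% of all genes lower, with a median log2 ratio of -0.42; without deep droplets 5 were lower, beside 5.62%, with a median of -0.28. Atf3, a stress-induced transcription factor, had 58.5 CPM in the library labelled cKO and 139 CPM in the library labelled WT, a ratio of 0.421 (0.290 to 0.600), and of 0.425 (0.289 to 0.614) without deep droplets. The heat shock gene Hspa1a had 475 CPM in the library labelled cKO and 798 CPM in the library labelled WT, but 5 cells held 83.9% of its UMIs in the library labelled cKO and 52.7% in the library labelled WT, and it was seen at matched depth in 7.91% of cells labelled cKO and 8.17% of cells labelled WT. Hspa1a and Hspa1b are near-identical copies. Because the early activation list overlaps in kind with genes induced during digestion, receptor signals and handling cannot be told apart in that list.

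Memory and cell cycle genes were lower in part. Of 6 compared memory genes Vim, S100a6 and Cd44 were lower at 1.5-fold, beside 12.5% of all genes, with a median of -0.61; without deep droplets the median was -0.33 and S100a6 and Cd44 stayed lower, beside 5.62%. Cd44, an adhesion receptor of activated cells, had 75.2 CPM in the library labelled cKO and 129 CPM in the library labelled WT, and without deep droplets 63.7 CPM in cells labelled cKO and 111 CPM in cells labelled WT. The cell cycle list had a median of -0.45 in all B cells, with 3 of 7 genes lower, and of -0.047 without deep droplets, where none of 5 compared genes reached 1.5-fold. Mki67, the proliferation marker, had 8 UMIs in the library labelled cKO and 29 in the library labelled WT, 17 of the 29 in 1 deep droplet with melanocytic RNA, and 6 UMIs in cells labelled cKO and 12 labelled WT without deep droplets. At matched depth, where each cell counts once, 3 or more cell cycle genes were seen in 14.1% (9.35% to 20.1%) of cells labelled cKO and 24.9% (19.7% to 30.7%) of cells labelled WT.

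**Figure D4:**
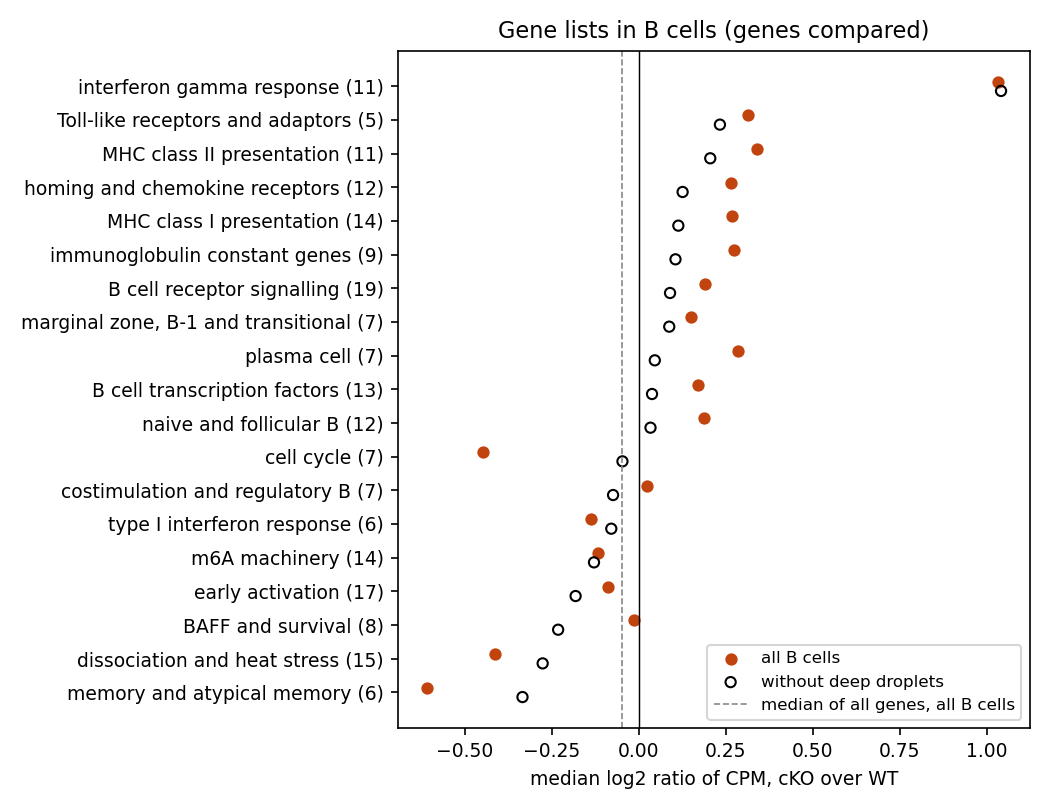
Median log2 ratio of CPM, cKO over WT (horizontal axis), of 19 gene lists in B cells, with the number of genes compared in brackets; filled points use all B cells and open points leave out the deep droplets. The interferon gamma list lies at 1.03 with the deep droplets and 1.04 without them. In all B cells it rests on 11 genes, 8 of which were compared only through the library where they were higher. The cell cycle list lies at -0.45 with the deep droplets and -0.047 without them.

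Named by a rule of size over 2170 eligible genes, the 12 with the highest ratio were Ighg2c, Ighg2b, Jchain, Irf1, Hspb1, Igkc, Lncpint, Lrmp, Birc2, Il21r, Chst3 and Abca1. In 5 of these 1 cell held over 50% of the UMIs of the library labelled cKO. The 12 with the lowest ratio were Ighg1, S100a9, S100a8, Mlana, Pmel, Dct, Mt2, Syngr1, Tyrp1, Slpi, Ptgds and Gpnmb, of which 9 had over 50% of the UMIs of the library labelled WT in 1 cell. Mlana, Pmel, Dct and Tyrp1 are pigment-cell genes, and S100a8 and S100a9 are calprotectin genes of neutrophils and monocytes. S100a9 had 0 UMIs in the library labelled cKO and 358 in the library labelled WT, in 11 cells.

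Under the same rule without deep droplets, the higher genes were mostly spread over many cells. Irf1 was first, followed by Hspb1, Lrmp, Lncpint, Birc2, Copb1, Il21r, Chst3, Mknk2, Abca1, Gps2 and Lars2. Lrmp, a lymphoid membrane protein of the endoplasmic reticulum, had 224 CPM in the library labelled cKO and 123 CPM in the library labelled WT, a ratio of 1.83 (1.41 to 2.39), and was seen at matched depth in 31.1% of cells labelled cKO and 19.5% of cells labelled WT. Chst3, a chondroitin sulphotransferase, had 188 CPM in the library labelled cKO and 111 CPM in the library labelled WT, and was seen in 29.4% of cells labelled cKO and 17.1% of cells labelled WT. Il21r, the receptor for a T helper cytokine that drives B cell differentiation, had 108 CPM in the library labelled cKO and 63.2 CPM in the library labelled WT, a ratio of 1.70 (1.17 to 2.498). Birc2, an inhibitor of apoptosis in the non-canonical NF-kB pathway, had 197 CPM in the library labelled cKO and 110 CPM in the library labelled WT. Hspb1 is the exception in spread, since its 88 UMIs in the library labelled cKO lay in 4 cells. The lower genes under this rule were S100a9, S100a8, Ier3, Ccl3, Ccl6, Egr1, Tpi1, Bcl2a1b, Ccl8, Cct3, Myc and Eno1. Their spread was uneven. Over all B cells labelled WT, the cell with most UMIs held 60.7% of those of Ccl6, 48.3% of S100a9 and 41.5% of Ier3. Myc, in contrast, lay in 70 cells labelled WT and Bcl2a1b in 59. Tpi1 and Eno1, enzymes of glycolysis, had 47.0 and 66.7 CPM in the library labelled cKO, against 149 and 126 CPM in the library labelled WT, and Tpi1 was seen at matched depth in 9.04% (5.26% to 14.3%) of cells labelled cKO and 23.3% (18.3% to 29.0%) of cells labelled WT.

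**Figure D5:**
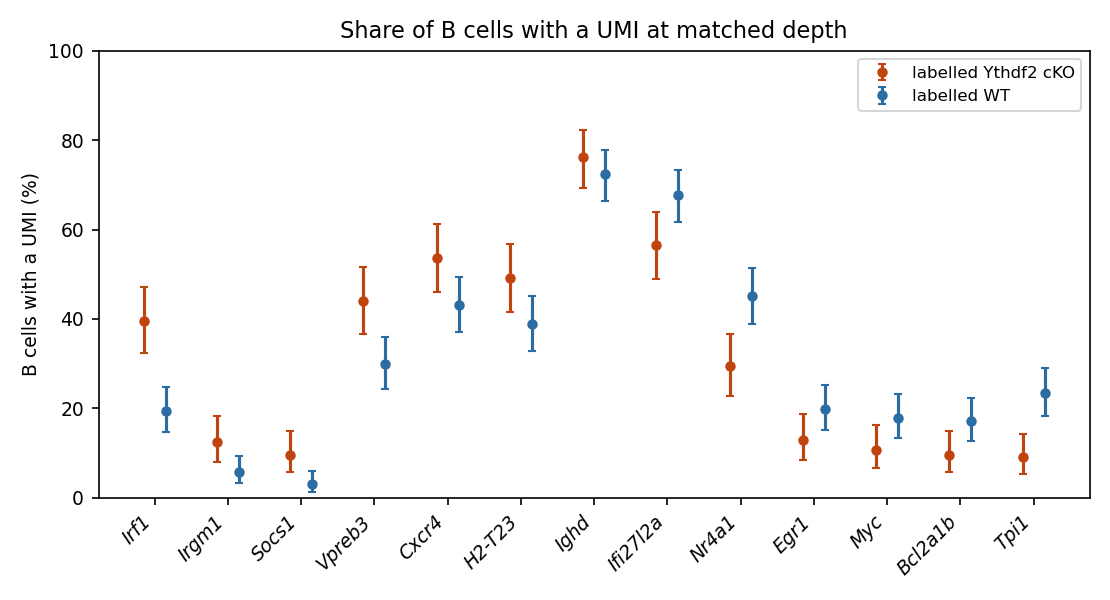
Share of B cells with a UMI of the gene (vertical axis, percent) after each cell was thinned to 1937 UMIs, with exact Clopper-Pearson intervals; orange is the library labelled Ythdf2 cKO (177 cells) and blue the library labelled WT (257 cells). Irf1 was seen in 39.5% (cKO) and 19.5% (WT) of the cells and Nr4a1 in 29.4% (cKO) and 45.1% (WT), whereas the intervals of Ighd overlap.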

How the data were processed

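Both libraries were made from CD45-sorted tumour cells with 10x 5′ chemistry, per the labels' protocols. The deposited matrices hold UMI counts for each gene and barcode, made by the authors with Cell Ranger 5.0.1 against mm10, per the submitters' processing notes, which also name Seurat 4.0.4; the matrix header names cellranger 5.0.0. The sources used here do not give the counting options. The matrices held 31053 genes, and 11398 barcodes with 121321782 UMIs in the library labelled cKO and 14404 with 128952491 in the library labelled WT.

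B cells were chosen by the rule given in the report, without clustering. Their UMIs were summed per library, scaled to CPM, and compared as log2((CPM cKO + 1)/(CPM WT + 1)) for genes with at least 50 UMIs. Intervals are exact Poisson for levels, Clopper-Pearson for shares, and for ratios Clopper-Pearson on the split of both counts. To set shares of cells side by side, UMIs were drawn without replacement down to 1937 per cell, the lower of the libraries' percentile 20 depths, which left out 3 cells of the library labelled cKO and 64 of the library labelled WT. Doublets were scored with Scrublet in scanpy 1.11.5 and kept, and removed as an alternative: the highest 779 scores (7.90%) labelled cKO and 1187 (9.75%) labelled WT, which took 7 B cells labelled cKO and 13 labelled WT. T cells had at least 2 Cd3 UMIs, NK cells at least 2 of Ncr1, Klrb1c and Klre1, myeloid cells at least 1 of Csf1r, and plasmacytoid cells at least 2 of Siglech, each without UMIs of the selecting genes of B cells, of Cd3 genes (T cells aside) and of Csf1r (myeloid cells aside), except that plasmacytoid cells could hold Csf1r and up to 2 UMIs of the B cell genes.

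Named genes had at least 100 UMIs over both libraries and 50 CPM in 1. Selection genes, receptor segments, mitochondrial, ribosomal protein, haemoglobin, sex-linked and unnamed genes were left out, as were genes under 0.2 of their level in another cell type of the library where they were higher. The members and the 20 lists were chosen with earlier results of these data known. Leaving out deep droplets, with or without those of other lineages, was chosen after seeing the data. Some genes are not reported here by name. Scripts were tested on simulated data. Python 3.11.15, numpy 2.4.6 and scipy 1.17.1 were used.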

Additional observations from a re-analysis of the deposited data

How the results depend on the processing

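No paired analysis was possible because there is 1 library per label. With 1 library each, no library can be left out, and genes of few UMIs are limited by depth: 4298 of 31053 genes could be compared. Under every alternative giving a value, the median log2 ratio of the interferon gamma list moved less than the median counting error of its genes. The same held for the medians of 14 other lists. The log2 ratios of Irf1 (1.07 to 1.40), Irgm1 and Socs1 moved within their counting intervals. The interferon gamma median of 1.03 ranged between 0.37 and 1.22. The counting error of single genes is a wide measure for a median of several genes. Staying within it therefore does not show that a median was stable. The log2 ratio of the B cell share, -0.53, moved to -1.32 with at most 5% mitochondrial UMIs and to -0.25 without cells holding UMIs of 5 other lineage genes. The 191 higher and 536 lower genes became 127 and 207 without those cells, 93 and 206 in thinned cells, 770 and 1783 with at least 10 UMIs, 62 and 248 with at least 100 UMIs, 118 and 191 without deep droplets or other lineages. The higher genes alone moved to 93 with at most 5% mitochondrial UMIs and to 115 with a pseudocount of 10 CPM, the lower ones to 335 with equal weight per cell and to 216 without deep droplets. Higher genes were 26.3% of those past 1.5-fold, and 34.1% with median-of-ratios scaling (240 higher, 464 lower), 38.0% without the 5 lineage genes, 39.3% without deep droplets and 38.2% without deep droplets or other lineages. The memory median of -0.61 moved to -0.13 with at most 5% mitochondrial UMIs and -0.16 with at least 10 UMIs. The plasma cell median of 0.28 moved to -0.25 with doublet scores removed. The immunoglobulin constant median of 0.27 moved to -0.030 with at most 5% mitochondrial UMIs, to 0.12 with doublets removed, without the 5 lineage genes or with equal weight, to 0.43 with at least 10 UMIs, to 0.11 without deep droplets and to 0.10 without deep droplets or other lineages. The cell cycle median of -0.45 moved to 0.065 without the 5 lineage genes, -1.23 with at least 10 UMIs and 0.087 without deep droplets or other lineages. Directions turned for 6 genes. The log2 ratio of Bhlhe41 was 0.10 without the 5 lineage genes, 0.026 with equal weight, 0.19 thinned and 0.078 without deep droplets or other lineages. The log2 ratio of Igkc was -0.28 with doublets removed. The log2 ratio of Jchain was -7.69 with doublets removed, -1.49 without the 5 lineage genes, -1.05 without secreting cells, -1.18 without deep droplets and -1.53 without deep droplets or other lineages. The log2 ratio of Top2a was 0.41 without the 5 lineage genes, 0.65 with equal weight, 0.45 without deep droplets and 0.27 without deep droplets or other lineages. The log2 ratio of Vim was 0.032 thinned and the log2 ratio of Vpreb3 was -0.048 with at most 5% mitochondrial UMIs. Settings that leave out droplets or weight cells equally take their UMIs out of the sums by construction; the cause of the other moves was not tested.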
